A study of Rattus norvegicus with 6 samples.

Results

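The endoplasmic reticulum (ER) genes described here were 47 genes for chaperones, stress sensors, the translocon and ER-associated degradation, picked by name from the 34156 genes of the deposited count table. They comprised 20 chaperones and folding enzymes, 3 sensor genes, 14 genes of the translocon and its partner complexes, and 10 genes of ER-associated degradation. The libraries came from RA-FLS, rat fibroblast-like synoviocytes bought as a rheumatoid arthritis line and labelled wild type. In the TNF-α group, 3 samples received TNF-α at 10 ng/mL, and in the TNF-α+EMO group 3 samples received the same TNF-α together with emodin (EMO, a plant anthraquinone) at 80 μmol/L. The labels give day 5 for all 6 samples, whereas the methods of the study give an incubation of 24 h. Both groups carried TNF-α and no untreated group was compared, so every difference below is that of added EMO on a TNF-α background.

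Secreted and membrane proteins enter the ER through the Sec61 channel, lose their signal peptide, receive N-linked glycans and fold with the help of chaperones. Proteins that fail to fold are recognised, drawn back across the membrane and handed to the proteasome, which is ER-associated degradation. When unfolded proteins accumulate, the membrane sensors IRE1α (Ern1), ATF6 and PERK start the unfolded protein response, and ATF6 and spliced XBP1 bind DNA elements in the promoters of chaperone and degradation genes.

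The known elements were looked for in the promoters of the members. RefSeq promoter windows of the GRCr8 build, running from 250 bases before to 50 bases after the start of each gene, were on hand for 40 of the 47 members and 27457 genes in all. There was no window for Manf, Pdia3, Pdia6, Atf6, Ern1, Sec61a1 and Derl1. The ER stress response element (ERSE, which is CCAAT, 9 bases of any kind and CCACG, on either strand) was present in 21 of all genes (0.0765%), of which 8 were members (20.0% of the 40). The related ERSE-II (ATTGG, 1 base of any kind and CCACG) was present in 17 genes (0.0619%), of which 3 were members (7.5%), and the element UPRE (TGACGTGG) in 187 genes (0.681%), of which 3 were members (7.5%). Their shared core CCACG, which lies inside ERSE and ERSE-II and overlaps UPRE on the other strand, was far more common, at 34.1% of all genes and 31 members (77.5%). The ERSE and ERSE-II matches of the members are printed to show how the same element recurs in genes of all 4 roles but the translocon, with the fixed letters of each element in capitals and the spacer in lower case.
Hspa5, ERSE: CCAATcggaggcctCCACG
Hsp90b1, first ERSE: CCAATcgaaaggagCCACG
Hsp90b1, second ERSE: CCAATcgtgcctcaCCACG
Calr, ERSE: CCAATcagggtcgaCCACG
Canx, ERSE: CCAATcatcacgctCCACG
Creld2, ERSE: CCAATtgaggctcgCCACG
Dnajc3, ERSE: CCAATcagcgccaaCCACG
Xbp1, ERSE: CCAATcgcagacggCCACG
Derl3, ERSE: CCAATaaggaagtcCCACG
Herpud1, ERSE-II: ATTGGgCCACG
Dnajb11, ERSE-II: ATTGGcCCACG
Hyou1, first ERSE-II: ATTGGcCCACG
Hyou1, second ERSE-II: ATTGGgCCACG
The 7 tested members with an ERSE had log2 fold changes from 0.16 (Hsp90b1) to 2.81 (Hspa5), so genes with the same element differed widely in their response. Those with an ERSE-II stood between 0.60 (Dnajb11) and 3.06 (Herpud1). Of the members with a UPRE, Hyou1 (0.97) and Vcp (0.28) rose, whereas Dnajc10 (-0.76) fell. A match describes the letters only and was not tested as a binding site.

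The 250 bases before the start are given for 3 of these genes. Hspa5 had the most counts among the responders, Hsp90b1, a close partner, changed little, and Herpud1, a degradation gene, rose strongly. Capitals mark exact matches of ERSE in Hspa5 and Hsp90b1 and of ERSE-II in Herpud1. Copies that differ from an element in any fixed letter were not searched for, so the marked matches are not a count of all elements. The second Hsp90b1 element lies on the opposite strand and therefore reads CGTGG to ATTGG. The Hspa5 window is chr3:38452766-38453015 on the plus strand, the Hsp90b1 window chr7:23012294-23012543 on the minus strand and the Herpud1 window chr19:10614708-10614957 on the minus strand, each in GRCr8.
Hspa5: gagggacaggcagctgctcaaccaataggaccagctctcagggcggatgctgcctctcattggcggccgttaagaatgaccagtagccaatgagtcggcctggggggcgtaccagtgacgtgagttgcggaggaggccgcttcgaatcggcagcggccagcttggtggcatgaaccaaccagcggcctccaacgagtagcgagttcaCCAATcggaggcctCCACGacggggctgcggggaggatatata
Hsp90b1: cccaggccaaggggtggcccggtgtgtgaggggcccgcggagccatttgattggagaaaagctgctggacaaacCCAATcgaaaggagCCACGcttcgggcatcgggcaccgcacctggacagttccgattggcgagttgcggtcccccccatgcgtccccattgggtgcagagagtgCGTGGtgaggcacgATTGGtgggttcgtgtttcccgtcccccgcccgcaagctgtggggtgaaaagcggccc
Herpud1: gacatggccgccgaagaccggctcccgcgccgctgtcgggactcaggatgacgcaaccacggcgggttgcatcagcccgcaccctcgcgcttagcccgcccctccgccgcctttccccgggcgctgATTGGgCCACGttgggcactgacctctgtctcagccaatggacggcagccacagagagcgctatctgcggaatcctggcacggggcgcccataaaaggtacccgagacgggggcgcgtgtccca

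The 6 libraries held between 16813322 and 17794455 counts in genes. Libraries of 1 group differed by more than counting error, with a chi-square per gene between 4.66 and 24.4, so none was treated as a repeat of another. Markers checked the cells. Of 8 fibroblast markers that could be tested, all 8 were lower with EMO, and their summed level fell from between 210600 and 231110 normalised counts to between 35263 and 38023, with Thy1, Pdpn and Prg4 at or near 0 in both groups. The summed macrophage markers ranged from 1203 to 1306 with TNF-α and from 734 to 804 with EMO, with Ptprc and Cd163 at 0 or below 1 count, and the endothelial sum ranged from 69.2 to 76.5 and from 13.2 to 21.7. The epithelial sum ranged from 9950 to 10812 and from 1984 to 2333, nearly all of it Krt8. Single markers went against these sums, since Cd68 rose by 0.75 on the log2 scale while Cd14 fell by 1.10, and Cldn4 was at 0 in the TNF-α libraries and between 16.5 and 28.5 normalised counts with EMO. The part of these marker shifts in the results below was not tested, and in bulk RNA fewer cells of a type and less RNA per cell cannot be told apart.

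Of the 47 members, 46 had enough counts to be tested and 1, Derl3, did not. With EMO, 33 rose, 4 fell and 9 did not pass the test (edgeR's quasi-likelihood test, adjusted p under 0.05). Among all 13614 genes tested, 39.4% were called higher and 41.4% lower, against 71.7% and 8.7% of the members. Any change was called for 80.4% of the members and 80.9% of all genes, so the share called was near that of the whole table. The members were chosen with earlier results of these data known. These shares are descriptions, with no test of the difference, and the shares of all genes are the background for each class and list counted below. Past 2-fold, 11 members were higher and 1 was lower, with 9 higher under scaling by library totals and 14 after removal of a gene length trend (26.1% together, against 47.3% of all genes, of which 19.5% were higher and 27.8% lower). The normalised counts of the groups did not overlap in 37 members, 32 higher and 5 lower (80.4%, against 82.9% of all genes, of which 40.3% were higher and 42.5% lower). The median log2 fold change of the members was 0.47, with a range from -1.08 to 3.52, against -0.01 over all genes tested.

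**Figure D1:**
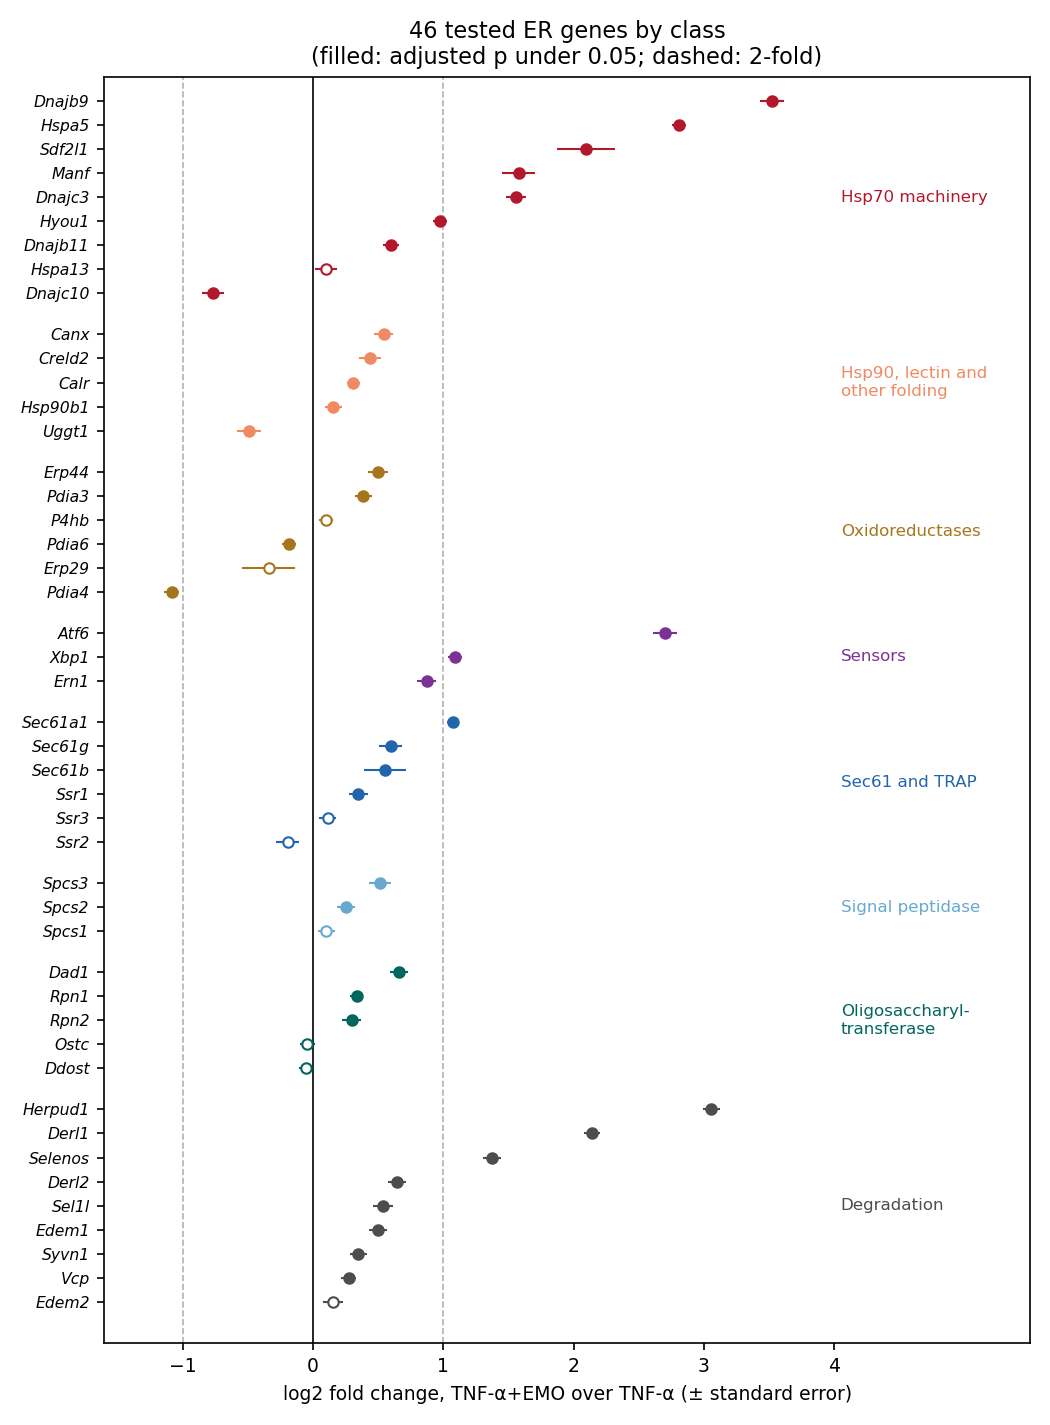
The log2 fold change (TNF-α+EMO over TNF-α) of each of the 46 tested members with its standard error, grouped by role, on a linear axis of log2 units, with filled points for an adjusted p under 0.05 and dashed lines at 2-fold. The values run from -1.08 for Pdia4 to 3.52 for Dnajb9, and the largest increases (Dnajb9, Herpud1, Hspa5, Atf6, Derl1 and Sdf2l1, all above 2) are spread over the chaperones, sensors and degradation genes, while the translocon genes lie between -0.19 and 1.07.

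The chaperones of the Hsp70 system counted 7 of 9 higher, 1 lower and 1 not passing the test, with a median log2 fold change of 1.56. Hspa5 encodes BiP, the ER Hsp70 that binds unfolded chains, gates the translocon and holds the sensors inactive (chromosome 3, 13838304 to 13842762, Rnor_6.0). Its normalised counts were 17173, 16933 and 18251 in the TNF-α samples and 125432, 122308 and 119868 in the TNF-α+EMO samples. The groups stood far apart, at 17452 ± 702 and 122536 ± 2789 (mean ± SD, n = 3 each), which was 7.02-fold higher with EMO (log2 2.81, SE 0.05, adjusted p = 8.9e-12, edgeR). Hspa5 alone took 0.106% ± 0.00507 of all counts with TNF-α and 0.685% ± 0.0232 with EMO, and its share of the counts of the 47 members went from 5.37% ± 0.217 to 23.1% ± 0.206 (n = 3 each).

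The J-proteins, which set the ATPase cycle of BiP, did not move together. Dnajb9 encodes ERdj4, which directs BiP to misfolded clients and to IRE1 (chromosome 6, 64165913 to 64170151). It went from 490, 516 and 532 normalised counts to 6630, 5636 and 5413, the largest change of any member, 11.5-fold (log2 3.52, SE 0.09, adjusted p = 5.4e-11, edgeR). Dnajc3 encodes P58IPK, a co-chaperone known as an inhibitor of PERK (chromosome 15, 104186792 to 104226329), and went from 1975, 1956 and 1971 to 6299, 5879 and 5184 (2.94-fold, log2 1.56, SE 0.07, adjusted p = 6.9e-09, edgeR). Every TNF-α+EMO sample was well above every TNF-α sample for both genes. Dnajb11 (ERdj3, a soluble J-protein) rose less, with a log2 fold change of 0.60. Dnajc10, encoding ERdj5, the disulfide reductase that prepares clients for degradation, fell instead, from 4627, 4992 and 4900 to 3170, 2873 and 2503 (log2 -0.76, SE 0.08, adjusted p = 6.6e-06, edgeR). Within a library, the Dnajb9 level per kb of transcript was 0.188 ± 0.00462 times that of Dnajc10 with TNF-α and 3.68 ± 0.181 times with EMO (n = 3 each).

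Hyou1, Sdf2l1 and Manf, other partners of BiP, rose to different extents. Hyou1, encoding GRP170, a nucleotide exchange factor of BiP, was just under 2-fold, from 4043, 4017 and 4291 to 8076, 8038 and 8131 (log2 0.97, adjusted p = 2.7e-08, edgeR). Sdf2l1, which keeps clients of BiP with ERdj3 soluble (chromosome 11, 88122271 to 88124513), went from 674, 680 and 663 to 2341, 2387 and 3873 (4.26-fold, log2 2.09, SE 0.22, adjusted p = 0.0002, edgeR). Manf, a secreted ER protein that stabilises BiP complexes (chromosome 8, 115623178 to 115626380), went from 2259, 2195 and 2558 to 6345, 6175 and 8425 (2.99-fold, log2 1.58, SE 0.12, adjusted p = 2.6e-06, edgeR). Replicate 3 of the TNF-α+EMO group was the highest library for Sdf2l1 and Manf, and without it their log2 fold changes were 1.81 and 1.41. Hspa13, an Hsp70-like ATPase of microsomes, had a log2 fold change of 0.10 with overlapping groups (adjusted p = 0.30, edgeR). Without TNF-α+EMO replicate 3 it came to 0.17 with an adjusted p of 0.03, with scaling by library totals alone to -0.01, and after removal of the gene length trend to 0.53 with an adjusted p of 3.6e-05.

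**Figure D2:**
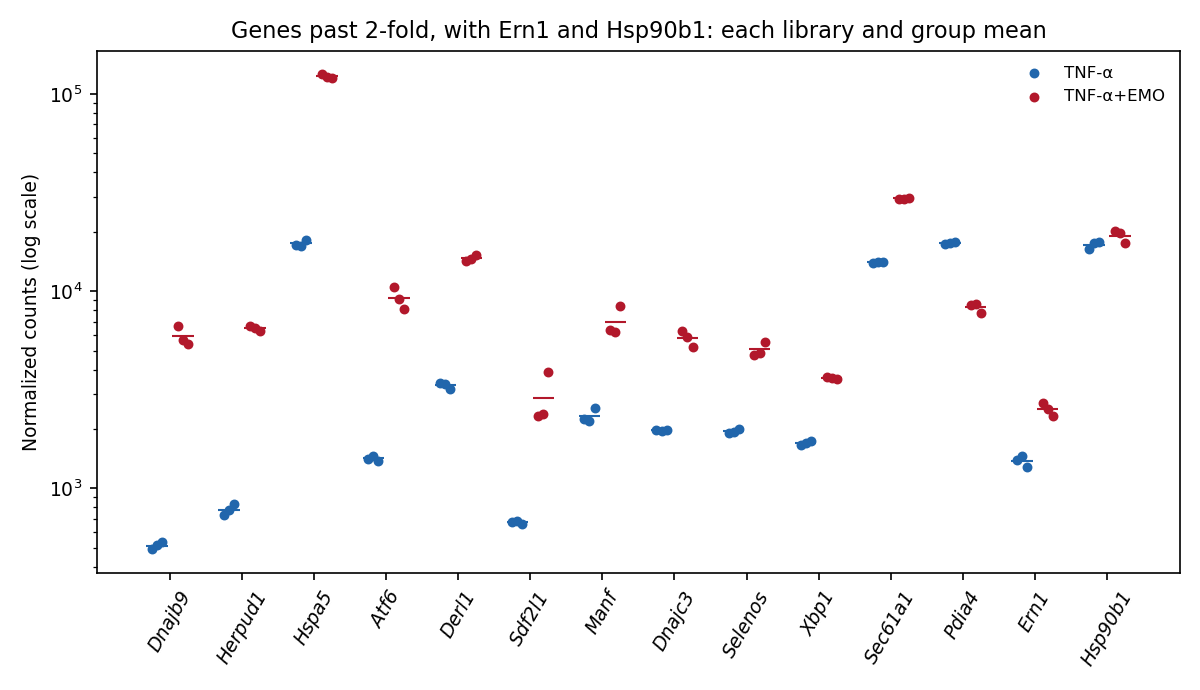
Normalised counts (log axis) of the chosen members in each of the 3 TNF-α and 3 TNF-α+EMO libraries, 1 point per library, with the group mean as a line, for the 12 members past 2-fold, Ern1 and Hsp90b1. The 3 points of each group lie close together for Hspa5 (16933 to 18251 against 119868 to 125432) and Herpud1 (733 to 830 against 6305 to 6645), whereas those of Hsp90b1 overlap between groups (16265 to 17699 against 17501 to 20141).

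The remaining folding factors changed by less than BiP and in both directions, with log2 fold changes from -1.08 (Pdia4) to 0.54 (Canx). Hsp90b1 encodes GRP94, the ER Hsp90 that matures integrins, Toll-like receptors and other clients (chromosome 7, 27226569 to 27240533), and its promoter carries 2 ERSE matches. Its counts were 16265, 17445 and 17699 in the TNF-α samples and 20141, 19708 and 17501 in the TNF-α+EMO samples. The groups overlapped, and the fold change of 1.12 (log2 0.16, SE 0.07) passed the threshold narrowly with an adjusted p of 0.047 in edgeR. The call was lost when any library other than TNF-α+EMO replicate 3 was left out (adjusted p between 0.063 and 0.18), while without that replicate the log2 fold change was 0.21 and the adjusted p 0.00093. After removal of the gene length trend it was 0.36 with an adjusted p of 0.00013 (edgeR). Within a library, Hspa5 stood at 1.27 ± 0.0547 times the level of Hsp90b1 per kb with TNF-α and at 8.02 ± 0.456 times with EMO (n = 3 each).

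Among the lectin chaperones, which retain glycoproteins until they fold, Calr rose by 0.31 and Canx by 0.54 on the log2 scale. Creld2, an ER-resident isomerase-like factor, rose by 0.44. Uggt1, the folding checkpoint that adds glucose back to misfolded glycoproteins, was lower, with a log2 fold change of -0.49 (adjusted p = 0.00046, edgeR). Its direction depended on how gene length was treated, since after removal of the length trend in each library the log2 fold change was 0.58 with an adjusted p of 1.7e-06.

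The thiol oxidoreductases, which form and rearrange disulfide bonds, had no common direction, with 2 of 6 higher, 2 lower and 2 not passing the test, and a median of -0.04. Pdia4 encodes ERp72, a protein disulfide isomerase found with BiP and GRP94 in chaperone complexes (chromosome 4, 77470636 to 77489535). It went from 17295, 17522 and 17820 normalised counts to 8472, 8599 and 7781. The groups, at 17546 ± 264 and 8284 ± 440 (n = 3 each), were the furthest apart of any member that fell, 2.12-fold lower with EMO (log2 -1.08, SE 0.06, adjusted p = 1.6e-08, edgeR). Pdia6 (P5) fell by 0.18 on the log2 scale. Pdia3 (ERp57, the partner of calnexin and calreticulin) rose by 0.39 and Erp44, which retains oxidoreductases in the early secretory pathway, by 0.50. Pdia3 overlaps Ppip5k1 on the other strand, a gene with 933 to 1190 counts per library, and reads of the overlap cannot be assigned without the strand setting.

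P4hb, encoding protein disulfide isomerase itself, had 71297, 71965 and 68256 normalised counts with TNF-α and 78347, 77794 and 70616 with EMO. The groups overlapped and the log2 fold change was 0.10 (adjusted p = 0.12, edgeR). Scaling by library totals alone gave -0.01, and leaving out TNF-α+EMO replicate 3 gave 0.14 with an adjusted p of 0.0075. Erp29, a folding factor of the PDI family without a redox active site, had a log2 fold change of -0.34 (adjusted p = 0.16, edgeR), and -0.63 (adjusted p = 3.8e-06) without TNF-α+EMO replicate 3, in which it reached 816 against 483 and 507 in the other TNF-α+EMO libraries.

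All 3 sensor genes rose. Atf6 encodes the membrane-bound factor that is cut in the Golgi to release an activator of chaperone genes (chromosome 13, 89055983 to 89242443). It went from 1414, 1458 and 1384 normalised counts to 10505, 9100 and 8105 (6.51-fold, log2 2.70, SE 0.09, adjusted p = 5.0e-10, edgeR). Xbp1, whose mRNA is spliced by IRE1α into the active factor (chromosome 14, 85753760 to 85758145), went from 1662, 1705 and 1743 to 3649, 3632 and 3585 (2.13-fold, log2 1.09, SE 0.06, adjusted p = 1.2e-08, edgeR). Ern1, which encodes IRE1α (chromosome 10, 94588555 to 94681914), went from 1385, 1451 and 1288 to 2698, 2520 and 2333 (1.83-fold, log2 0.87, SE 0.07, adjusted p = 8.1e-07, edgeR). No TNF-α+EMO sample overlapped with a TNF-α sample for any of them. The ratio of Atf6 to Ern1 per kb went from 1.53 ± 0.0542 to 5.40 ± 0.315 (n = 3 each). Counts per gene do not separate spliced from unspliced Xbp1 mRNA, nor cut from uncut ATF6 protein, so they are levels of the sensors' transcripts and not of their activity.

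Among 8 other sensor genes that were tested, 4 rose and 3 fell, or 50% and 37.5%, against 39.4% and 41.4% of all genes tested. Eif2ak3, encoding PERK, rose by 2.09 on the log2 scale, Rtcb, the ligase that joins the Xbp1 exons, by 0.88, Tmbim6, an ER membrane protein that restrains IRE1α, by 0.76 and Atf6b, the relative of ATF6, by 0.33. The ATF6-like membrane factors of secretory and matrix-producing cells went the other way, with log2 fold changes of -2.23 for Creb3l2 and -1.15 for Creb3l1, and so did Mbtps1, the Golgi protease that makes the first cut in ATF6, at -0.86. Mbtps2, the protease of the second cut, had a log2 fold change of 0.02 (adjusted p = 0.82, edgeR).

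In the translocon and its partner complexes, 9 of 14 members rose, none of the 14 fell (edgeR, with up to 4 falling under other settings) and 5 did not pass the test, with a median log2 fold change of 0.32. Sec61a1 encodes the channel itself (chromosome 4, 120453581 to 120467932). It went from 13924, 14036 and 14074 normalised counts to 29397, 29384 and 29750, or from 14011 ± 77.6 to 29510 ± 208 (n = 3 each). The separation was wide beside the narrow spread within groups, at 2.11-fold (log2 1.07, SE 0.05, adjusted p = 4.1e-09, edgeR), and Sec61a1 was the only member of this class past 2-fold. The small channel subunits followed less strongly, Sec61b at 0.55 and Sec61g at 0.60 on the log2 scale. Sec61b was highest in TNF-α+EMO replicate 3 (2938, against 1910 and 2081), stood at 0.33 without it and at 0.10 (adjusted p = 0.32) after removal of the length trend, which also took Sec61g to 0.175 (adjusted p = 0.019). With library totals Sec61a1 was just under 2-fold, at 0.96.

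The TRAP subunits, which assist the entry of some signal sequences, were mixed. Ssr1 rose by 0.35, whereas the log2 fold changes of Ssr2 and Ssr3 were -0.19 (adjusted p = 0.056) and 0.11 (adjusted p = 0.13, both edgeR) with overlapping groups. Ssr2 was called lower in 9 of 14 alternatives, DESeq2 (adjusted p = 0.045) and library totals (adjusted p = 0.005) among them. Without TNF-α+EMO replicate 3 both passed, Ssr2 at -0.30 (adjusted p = 0.00017) and Ssr3 at 0.15 (adjusted p = 0.026). Of the signal peptidase subunits, Spcs3 rose by 0.52 and Spcs2 by 0.25, the latter losing its call with library totals (0.14, adjusted p = 0.085). Spcs1 stood at 0.10 (adjusted p = 0.17, edgeR), or at 0.15 (adjusted p = 0.024) without TNF-α+EMO replicate 3. With library totals it came to -0.01 and was not called. After removal of the length trend it was called lower, at -0.23 (adjusted p = 0.032).

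The oligosaccharyltransferase, which transfers the glycan to the growing chain, was represented by 5 subunits, of which 3 rose. Rpn1, encoding ribophorin I (chromosome 4, 119997268 to 120018679), went from 16398, 16151 and 16414 to 20405, 20979 and 20392 normalised counts. This was a small change of 1.26-fold (log2 0.34, SE 0.05, adjusted p = 7.6e-05, edgeR). Every TNF-α+EMO library was above every TNF-α library, and the groups did not overlap in 82.9% of all genes tested. Dad1 rose by 0.66 and Rpn2 by 0.30, while Ostc (-0.04, adjusted p = 0.51) and Ddost (-0.06, adjusted p = 0.36) did not pass the test in edgeR with TMM scaling. With library totals Rpn2 lost its call (0.18, adjusted p = 0.052), while Ostc (adjusted p = 0.027) and Ddost (adjusted p = 0.015) were called lower, as they were after removal of the length trend, at -0.36 (adjusted p = 0.00013) and -0.21 (adjusted p = 0.0022). The Sec61a1 level per kb was 0.628 ± 0.00731 times that of Rpn1 with TNF-α and 1.05 ± 0.0218 times with EMO (n = 3 each).

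In ER-associated degradation, 8 of the 9 tested members rose and 1 did not pass the test, with a median of 0.54. The 3 largest changes were in proteins of the membrane complexes that pass substrates to the cytosol. Herpud1 encodes HERP, a short-lived ubiquitin-like scaffold that joins the HRD1 ligase (chromosome 19, 11046909 to 11057254), and went from 733, 776 and 830 normalised counts to 6645, 6521 and 6305 (8.32-fold, log2 3.06, SE 0.07, adjusted p = 2.2e-11, edgeR). Derl1, a derlin that helps to move substrates out of the membrane (chromosome 7, 97737178 to 97759852), went from 3404, 3382 and 3191 to 14288, 14555 and 15195 (4.41-fold, log2 2.14, SE 0.06, adjusted p = 8.7e-11, edgeR). Selenos, a selenoprotein that binds derlins and VCP (chromosome 1, 126979575 to 126989344), went from 1917, 1931 and 2008 to 4771, 4869 and 5552 (2.59-fold, log2 1.38, SE 0.07, adjusted p = 1.2e-08, edgeR). The groups were clearly apart for each of the 3 genes.

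The core of the ligase and Vcp rose by less when the gene length trend was left in. Sel1l, Syvn1 and Vcp were called higher in all 14 alternatives, although the order of Sel1l and Selenos changed with removal of the length trend. Sel1l, the adaptor that stabilises HRD1 (chromosome 6, 115572649 to 115616859), went from 3965, 4160 and 4206 to 6553, 5956 and 5380 (1.45-fold, log2 0.54, SE 0.07, adjusted p = 5.0e-05, edgeR). Syvn1, which encodes the HRD1 ligase (chromosome 1, 221409271 to 221417886), went from 3463, 3283 and 3154 to 4400, 4231 and 3965 (1.27-fold, log2 0.35, SE 0.06, adjusted p = 0.00042, edgeR), and overlaps Mrpl49 on the other strand, a gene with 111 to 261 counts per library. Vcp, the ATPase that extracts ubiquitinated substrates (chromosome 5, 58426549 to 58445953), went from 10960, 11034 and 11220 to 13815, 13857 and 12521 (1.21-fold, log2 0.28, SE 0.06, adjusted p = 0.0011, edgeR). After removal of the gene length trend the log2 fold changes were 1.31 for Sel1l and 0.94 for Syvn1, and Sel1l then exceeded Selenos at 1.07. Within a library the Herpud1 level per kb was 0.659 ± 0.0235 times that of Sel1l with TNF-α and 3.80 ± 0.274 times with EMO (n = 3 each). Derl1 went from 1.35 ± 0.0249 to 3.83 ± 0.395 times Derl2 (n = 3 each). The length trend was not removed from these or the other ratios within a library. After its removal Herpud1 was at 2.93 on the log2 scale, still above Sel1l.

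Of the other degradation members, Derl2 rose by 0.64 and Edem1, a mannosidase-like factor that marks glycoproteins for disposal, by 0.50. Edem2, the mannosidase that starts this trimming, stood at 0.15 (adjusted p = 0.089, edgeR), and passed the test without TNF-α+EMO replicate 1 (0.20, adjusted p = 0.036) or without TNF-α replicate 1 (0.21, adjusted p = 0.048). Derl3 was listed at 0 in all 6 libraries. It overlaps Smarcb1, a widely used chromatin gene that was itself listed at 0 or 1 count, so the value of 0 was not read as the absence of Derl3 mRNA.

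The summed normalised counts of the members rose in every class, 1.63-fold for the chaperones, 3.42-fold for the sensors, 1.38-fold for the translocon genes and 1.94-fold for the degradation genes. Without Hspa5 the chaperone sum rose by 1.17-fold. Together the members took 1.97% ± 0.0268 of all counts with TNF-α and 2.96% ± 0.116 with EMO (n = 3 each).

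Levels were compared between genes as normalised counts per kb of the deposited gene length. With TNF-α, P4hb led at 28327 ± 794 per kb, followed by Calr at 15220 ± 232, Pdia3 at 8812 ± 365, Pdia4 at 7534 ± 113, Rpn1 at 7362 ± 66.6 and Hspa5 at 6812 ± 274 (n = 3 each). Pdia4 and Rpn1 differed by less than their summed SD, as did 25 of the 45 neighbouring pairs in this order. With EMO, Hspa5 was first at 47828 ± 1089 per kb, ahead of P4hb at 30368 ± 1733, Calr at 18869 ± 536, Pdia3 at 11526 ± 821 and Sec61a1 at 9733 ± 68.5. The first 5 ranks were separated by more than the summed SD, whereas 35 of the 45 neighbouring pairs were not. Ern1 was the lowest of the 46 detected members in both groups, at 199 and 364 per kb.

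**Figure D3:**
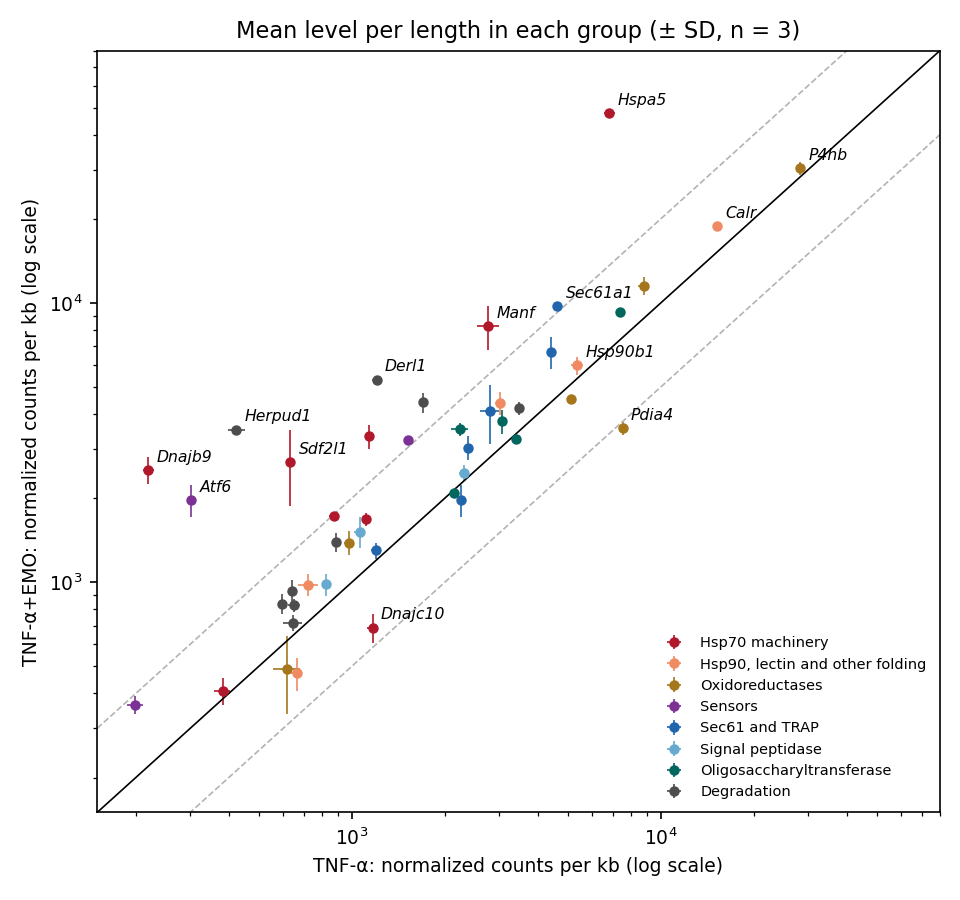
Mean level of each member in normalised counts per kb in the TNF-α group (horizontal log axis) and in the TNF-α+EMO group (vertical log axis), coloured by role with SD bars (n = 3), a line where both groups are equal and dashed lines at 2-fold. Hspa5 lies above the line and passes from sixth place (6812 per kb) to first (47828 per kb), P4hb stays close to the line (28327 and 30368), and Pdia4 is the furthest below it.

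The wider machinery was examined through 114 further tested genes of the same pathway, of which 77 rose, 22 fell and 15 did not pass the test, with a median log2 fold change of 0.50 (against 39.4% higher and 41.4% lower among all genes). These genes too were chosen with earlier results of these data known. Of 38 further degradation genes, 30 rose and 4 fell, with a median of 0.79. Ubxn4, an ER membrane protein that recruits VCP, rose by 2.58, Rnf185, a membrane ubiquitin ligase, by 2.39 and Aup1, which brings the conjugating enzyme Ube2g2 to the ligase, by 2.19. The largest decreases were those of the ubiquilins Ubqln2 (-1.19) and Ubqln4 (-0.41), which shuttle ubiquitinated proteins, and of Edem3 (-0.41).

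Of 33 further genes of targeting, translocation and glycosylation, 24 rose and 4 fell, with a median of 0.66. Sec11c, a catalytic subunit of signal peptidase, rose by 1.76, the TRAP subunit Ssr4 by 1.54 and Emc4 of the membrane insertion complex EMC by 1.51. Tram2, which assists collagen synthesis at the translocon, fell by 4.84 on the log2 scale, from 356 ± 42.9 to 12.3 ± 1.05 normalised counts (n = 3 each, adjusted p = 9.9e-10, edgeR). The EMC subunit Emc1 (-0.83) and the oligosaccharyltransferase subunit Stt3b (-0.51) also fell.

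Of 35 further chaperones and folding enzymes, 19 rose and 11 fell, with a median of 0.26. The membrane thioredoxin-related Tmx1 (1.96), the J-protein Dnajc1 (1.12) and the prolyl isomerase Fkbp2 (1.08, with 1371, 1854 and 2727 normalised counts in the TNF-α+EMO libraries) rose most. The prolyl isomerase Fkbp9 (-1.41), the ER peroxiredoxin Prdx4 (-1.26) and Cnpy4 (-0.99) fell most. The mixed directions among the oxidoreductase members were also present in the wider list.

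A pair of related stress lists is given for scale, with no test of their difference from the members. Of all genes tested, 39.4% were called higher and 41.4% lower. The shares were 84.2% and 10.5% in the integrated stress response list and 69.6% and 17.4% in the heat shock list. Of 19 genes of the integrated stress response downstream of PERK and its sister kinases, 16 rose and 2 fell, with a median of 2.27, led by Ddit3 (5.94) and Atf3 (5.63), with decreases of Cebpb (-0.71) and Psat1 (-0.57). Of 23 cytosolic and mitochondrial heat shock genes, 16 rose and 4 fell, with a median of 0.62, from Cryab (5.28) and Hspa4l (2.87) to Hspb6 (-2.32) and Hspa2 (-2.85).

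**Figure D4:**
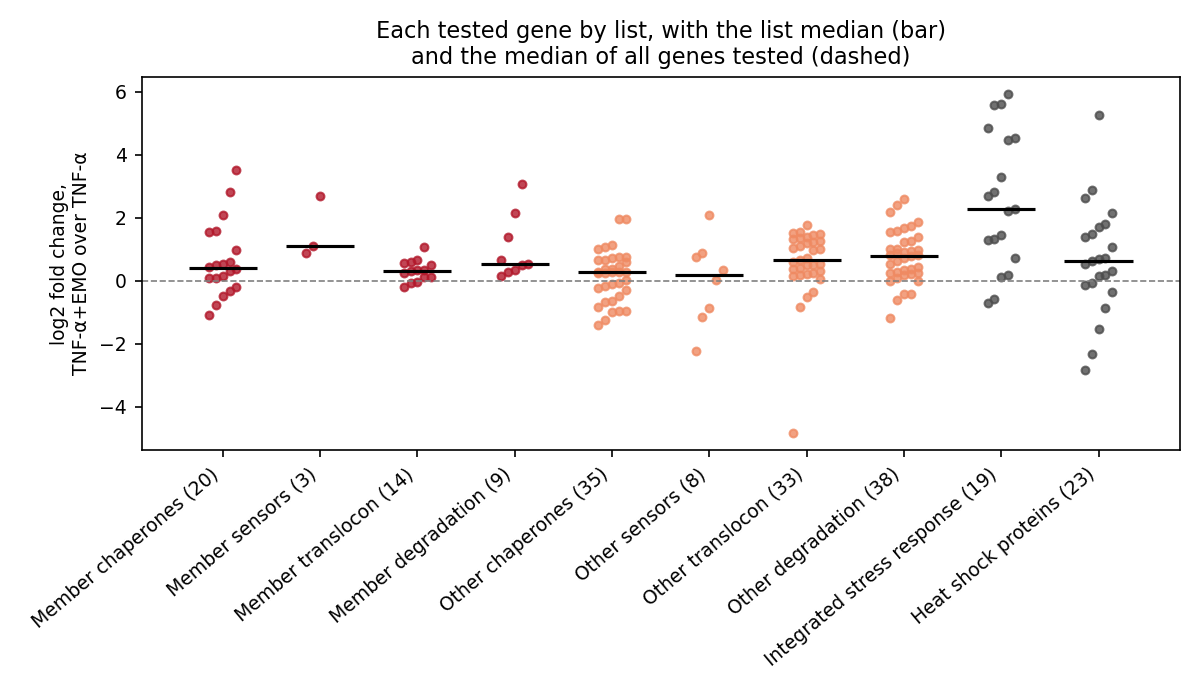
Log2 fold change (TNF-α+EMO over TNF-α) of every tested gene in the member classes, the further genes of the same pathway and the stress lists set beside them, 1 point per gene with the median of each list as a bar and the median of all genes tested as a dashed line. The medians are 0.41 for the chaperone, 1.09 for the sensor, 0.32 for the translocon and 0.54 for the degradation members, against 2.27 for the integrated stress response list and -0.01 for all genes tested.

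The third TNF-α+EMO library stood apart from the other libraries of its group in a way that followed gene length. The log2 ratio of a member's normalised count in this library to the mean of the other TNF-α+EMO libraries ranged from -0.28 to 0.72, was above 0.2 for 8 members and below -0.2 for 11, and had a Spearman correlation of -0.63 with log gene length over the 46 members. For the third TNF-α library the same correlation was -0.19 and no member passed 0.2 in either direction. The points share 1 library, and the correlation is given as a description. Of 13 members shorter than 1500 bp, 10 were highest in the third TNF-α+EMO library, and of 33 longer ones, 24 were lowest in it. Erp29 (0.72), Sdf2l1 (0.71), Sec61b (0.56) and Manf (0.43) were the furthest above, all of them short. The 12 members past 2-fold were past it without this library as well. Among the smaller differences, leaving it out changed Sec61g from 0.60 to 0.48 on the log2 scale, Creld2 from 0.44 to 0.36, Spcs2 from 0.25 to 0.18 and Rpn2 from 0.30 to 0.37, each of them still called.

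Removing a smooth trend of log count against gene length in each library moved many of the smaller differences by over 1.5 times. The log2 fold changes of long genes grew, to 1.12 for Canx, 1.5 for Hyou1, 1.71 for Ern1, 0.78 for Spcs3, 0.40 for Spcs2 and 0.48 for Vcp. Those of shorter genes shrank, to 0.315 for Dad1, 0.345 for Derl2, 0.288 for Erp44, 0.175 for Creld2 and 0.185 for Calr, and Pdia6 went to -0.336. All of these kept their call and direction, as did Dnajc10 at -0.345, while Xbp1 was below 2-fold at 0.779. Scaling by library totals likewise moved Calr to 0.196, Rpn1 to 0.222, Vcp to 0.162 and Pdia6 to -0.298 with their calls kept. Leaving out TNF-α+EMO replicate 3 did not give the values found after removal of the length trend. Without that library Canx was at 0.61, Ern1 at 0.92, Sel1l at 0.60 and Uggt1 at -0.41. After removal of the trend they were at 1.12, 1.71, 1.31 and 0.58. Sec61b and Sec61g moved part of the way without that library, to 0.33 and 0.48. The part of gene length in the difference between the groups was not tested.

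**Figure D5:**
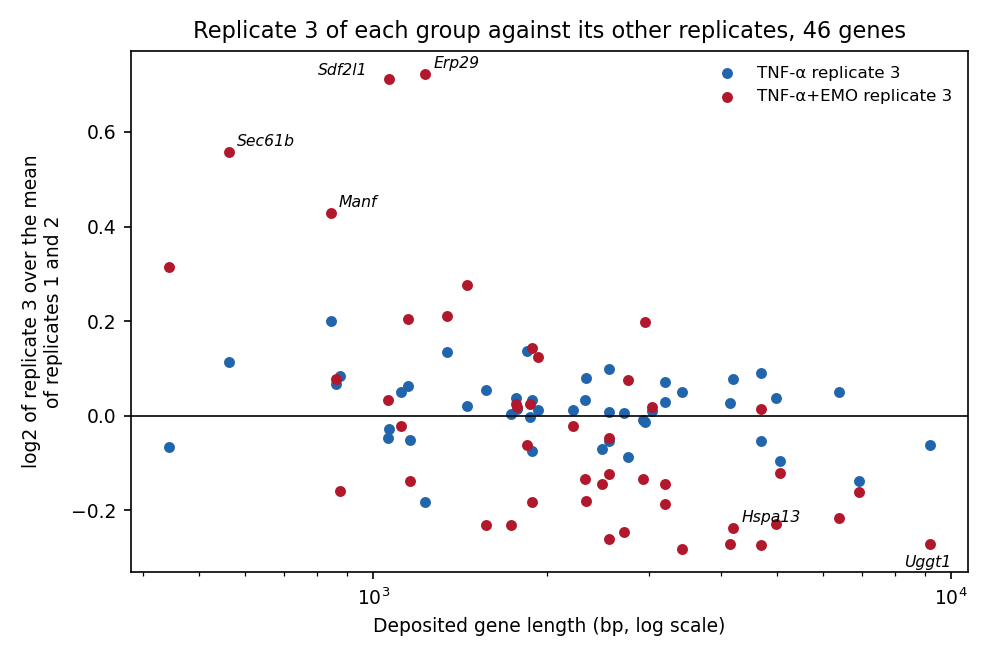
Deviation of replicate 3 of each group from replicates 1 and 2 of that group (log2 ratio, vertical axis) against gene length in bp (horizontal log axis), 1 point per member and group. For TNF-α+EMO replicate 3, short members such as Erp29, Sdf2l1 and Sec61b lie up to 0.72 above 0 and long members lie down to -0.28, while the points of TNF-α replicate 3 stay between -0.18 and 0.20.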

How the data were processed

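RNA-seq libraries of rat RA-FLS, 3 of the TNF-α group and 3 of the TNF-α+EMO group, were analysed from the deposited gene table. Per the labels and the methods of the study, the authors checked reads with FastQC, cleaned them (Trimmomatic in the submitters' processing notes), aligned them with HISAT2 to Rnor_6.0 and deposited raw counts per gene, with no normalization. The counting program, annotation version and strand setting are not given in the sources used here. The authors also deposited FPKM values, group mean signal after size factor scaling, log2 fold changes and p-values of their own comparison, none of which was used. Coordinates and gene lengths are as deposited.

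Genes with at least 10 counts in 3 libraries were tested with edgeR 4.0.16 in R 4.3.3 (TMM scaling, quasi-likelihood test, TNF-α+EMO against TNF-α), and p-values were adjusted by Benjamini-Hochberg over all 13614 genes. Normalised counts are counts divided by TMM-scaled library size relative to the mean, and ± is the SD over 3 libraries. The methods of the study call the samples biological replicates, with no word on how the cultures were separated, so p-values measure the spread between these samples, and an exact permutation test of 3 against 3 cannot go below 0.1. A call needed an adjusted p under 0.05.

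The members and all lists were chosen with earlier results of these data known. Full values were given for members past 2-fold, the 3 sensor genes and Hspa5, Hsp90b1, Sec61a1, Rpn1, Syvn1, Sel1l and Vcp. Among further pathway genes the 3 largest increases and decreases per list were named (2 in the compared stress lists), among genes with a mean of at least 100 counts, an adjusted p under 0.05 and groups without overlap, and in the sensor list every tested gene. Hspa1a, Mlec, Uggt2, Tmem258, Srp72, Srprb, Col1a2 and Pecam1 of these lists were not analysed here. Alternatives were DESeq2 1.42.0, other scalings, filters of 1 and 50 counts, a replicate block, each library left out in turn (on the same genes), an adjusted p under 0.01 and, chosen after seeing the data, removal of a gene length trend in each library. On simulated data of 13404 genes, edgeR recovered 93.0% of 86 genes changed 2-fold and 100% of 106 changed 4-fold, with 3.12% false calls. DESeq2 recovered 88.4% and 98.1%, with 7.22%. The simulation changed only these genes, gave all genes the same dispersion and held no gene length trend. In the real data 80.9% of genes were called and a library deviated with gene length, so these rates do not carry over to the results above.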

Additional observations from a re-analysis of the deposited data

How the results depend on the processing

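Of the 46 tested members, 32 kept their direction and their side of the threshold in all 14 alternatives, all of them called, and leaving out any library left 11 or 12 members higher and 1 lower past 2-fold. That number higher was 9 with library totals (Xbp1 at 0.975 and Sec61a1 at 0.961 were then below 2-fold) and 14 after removal of the length trend. Hsp90b1 kept its call in 2 of 14 alternatives (adjusted p from 0.00013 to 0.58). Signs reversed for Hspa13 (-0.0124), P4hb (-0.0123) and Spcs1 (-0.00933) with library totals, and for Uggt1 (0.579) and Spcs1 (-0.23) after removal of the length trend, which was chosen after seeing the data. The number of members lower was 7 with library totals and 8 without the length trend, in place of 4. The number of translocon members lower was 3 and 4 under those settings and 1 with DESeq2, its size factors in edgeR, upper quartile scaling, no filter, a filter of 50 counts or the replicate block, in place of 0, and between 0 and 1 with a library left out. The further translocon genes lower numbered 2 without the length trend. With no filter the heat shock list had 7 lower, 6 past 2-fold, and a median of 0.407, and the further sensor genes a median of 0.326.

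Library totals moved the median of all genes to -0.125 and the medians to 0.357 (members), 0.3 (chaperones), 0.975 (sensors), 0.203 (translocon), 0.424 (degradation), 0.15, 0.062, 0.55 and 0.678 (further chaperone, sensor, translocon and degradation genes), 2.15 (integrated stress response) and 0.507 (heat shock). Relative to all genes the members' median was then 0.482, against 0.481 with TMM. Upper quartile scaling gave 1.05 (sensors), 0.274 (translocon) and 0.749 (further degradation genes). Without the length trend medians were 1.71 (sensors), 0.248 (translocon), 0.936 (degradation), 0.053, 0.524 and 0.791 (further chaperone, sensor and translocon genes), 2.67 (integrated stress response) and 0.504 (heat shock). With a library left out, medians ranged from 0.419 to 0.492 (members), 0.273 to 0.334 (translocon), 0.458 to 0.599 (degradation), 0.755 to 0.828 (further degradation genes) and 2.25 to 2.73 (integrated stress response). The causes of these shifts were not tested.

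Replicate numbers were shared between groups, and deviations of same-numbered samples from their group means correlated at 0.0196, -0.000655 and 0.0565. The highest correlation between samples of different number was 0.037. With 3 libraries per group, these values cannot decide whether same-numbered samples were handled together. With the replicate block 10806 genes were called in place of 11008, the integrated stress response median was 2.41, Hsp90b1 lost its call (adjusted p = 0.075, edgeR) and Ssr2 gained one (adjusted p = 0.045). With at least 16813322 counts per library, counting error was small for all tested members, and the 3 libraries per group set the precision.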

Other observations

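The ERSE was also present in the promoter windows of 13 genes outside the 47, of which 8 were tested, and these had no common direction. Zfand2a, an arsenite-inducible partner of the proteasome, rose by 3.40 on the log2 scale (576 ± 39.6 to 6065 ± 152 normalised counts, n = 3 each, adjusted p = 1.5e-11, edgeR). Ero1b, the ER oxidase that drives disulfide formation, rose by 0.71 and Ppm1l, an ER phosphatase that acts on IRE1, by 0.30. Birc5, encoding the mitotic protein survivin, fell by 4.47, Zfp57 by 1.40 and Ankmy2 by 0.42, and Hnrnpa3 and Pan2 did not pass the test. The median over the 8 genes was -0.02.

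Of 14 further genes with an ERSE-II, 6 were tested, 3 rose and 3 fell. Nucb1, a Golgi calcium-binding protein, rose by 1.53 (8077 ± 262 to 23267 ± 1065, n = 3 each, adjusted p = 1.0e-09, edgeR), and Cdc45, a replication factor, had a log2 fold change of -2.71. These genes were chosen by the letters in their promoters and named after their values were seen.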
